A study of Homo sapiens with 6 samples.

Results

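Integrins are the cell-surface receptors that hold a cell to its matrix, and laminins are the matrix proteins that basement membranes are built on. Rows of the count table whose symbol names an integrin alpha or beta subunit or a laminin alpha, beta or gamma chain were taken, apart from antisense rows and the related names ITGBL and ITGB1BP. The rule uses names only, and 36 genes of the 21631 in the table are analysed here, 26 integrin subunits and 10 laminin chains. The RNA came from A-375, a human melanoma cell line. There were 3 libraries titled with a guide against SEPHS2, called here the libraries labelled knockout, and 3 titled with a control guide, called the control libraries. The labels give no treatment or time, and do not say whether either group is a clone or a pool, so the guide and any difference between founding cells cannot be told apart. They do not say either whether the 3 libraries of a group were grown separately. The p-values therefore measure the spread between these samples alone, and that spread may be technical.

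An integrin is a pair of an alpha and a beta subunit, and a laminin is a trimer of an alpha, a beta and a gamma chain that coil together before secretion. The alpha chain of a laminin carries the part that integrins hold. ITGB1 pairs with ITGA3, ITGA6 or ITGA7 to make laminin receptors and ITGB4 pairs with ITGA6, while the other subunits make receptors for collagens, for ligands with an RGD motif such as fibronectin and vitronectin, or for proteins on other cells. In melanoma these receptors are known for their part in invasion through basement membranes, and the ITGAV and ITGB3 pair is a long-known mark of invasive growth.

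The libraries held 34606145 to 43405579 counted reads. SEPHS2, the targeted gene, had 173 ± 3.85 CPM (counted reads scaled to a common library size) in the libraries labelled knockout and 156 ± 3.32 CPM in the control libraries (SD, n = 3 each). The log2 fold change was 0.15 (edgeR adjusted p = 0.00401), so the targeted mRNA was not lower, a gene-level count does not show whether a reading frame was changed, and every direction below rests on the labels. Of 14 markers of the melanocyte lineage and melanoma, 11 were tested, 3 fell (MITF, TFAP2A and SOX10) and 2 rose (NGFR and AXL). Their median log2 fold change was -0.03. For comparison, 23.4% of all tested genes fell and 22.0% rose, so the share of these markers called was near that of all genes. SOX10 had 569 ± 13.0 CPM and 619 ± 15.6 CPM in the same order of groups, while the pigment genes TYR, DCT and TYRP1 were under 1 CPM in every library. The calls of SOX10 and TFAP2A were lost when a trend on gene length and GC content, described below, was removed. Their log2 fold changes were then 0.02 for SOX10 (edgeR adjusted p = 0.670) and -0.17 for TFAP2A (edgeR adjusted p = 0.0747). NGFR, a marker of a neural crest-like state, had 24.1 ± 3.61 CPM in the libraries labelled knockout and 6.12 ± 0.342 CPM in the control libraries, log2 fold change 1.97 with an SE of 0.10 and an edgeR adjusted p of 6.88e-13. AXL had 158 ± 3.85 CPM in the libraries labelled knockout and 118 ± 1.04 CPM in the control libraries and MITF 18.5 ± 0.668 CPM in the libraries labelled knockout and 23.5 ± 1.30 CPM in the control libraries, with log2 fold changes of 0.42 and -0.35. Their part in the results below was not tested. Of markers of other cell types, 12 of 13 leukocyte and platelet markers, 7 of 10 keratinocyte, 4 of 10 fibroblast and 5 of 10 endothelial markers were absent from the table or under a mean of 1 CPM. The rest were not all low: KRT10 had 42.3 ± 1.65 CPM in the libraries labelled knockout and 34.6 ± 0.635 CPM in the control libraries, PDGFRB 28.9 ± 2.21 CPM in the libraries labelled knockout and 52.5 ± 0.836 CPM in the control libraries and TIE1 20.3 ± 1.00 CPM in the libraries labelled knockout and 10.3 ± 1.17 CPM in the control libraries.

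Most integrin and laminin genes that were well expressed were lower in the libraries labelled knockout, by less than 2-fold in most cases, and a few were higher, though the balance among laminin chains depended on a correction for gene length. Of the 30 members that passed the filter on low counts, 20 fell and 4 rose. Among 21 tested integrins 14 fell and 4 rose, and among 9 tested laminin chains 6 fell and the other 3 were not called. A call is an adjusted p under 0.05 in edgeR's quasi-likelihood test over all 16910 tested genes, of which 45.4% were called, 23.4% lower and 22.0% higher. The libraries of the groups did not overlap in CPM for 18 of 21 integrins and 7 of 9 laminin chains, against 52.1% of all tested genes. The median log2 fold change was -0.35 over the tested integrins and -0.24 over the tested laminin chains, against 0.01 over all tested genes. The 6 members left out by the filter, ITGAD, ITGAL, ITGAM, ITGB6, ITGB7 and LAMB4, had at most 29 reads over the 3 libraries of either group. The 36 members together took 0.587, 0.576 and 0.596% of the counted reads in the libraries labelled knockout, against 0.777, 0.755 and 0.753% in the control libraries. In bulk RNA, fewer cells of a kind and less RNA per cell cannot be told apart.

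Integrins and laminins are long genes, with 4394 to 18566 bases of annotated exon (GENCODE release 29, GRCh38), and length moved with the result across the whole table. Tested genes with 8 to 12 kb of exon had a median log2 fold change of -0.06 and 35.6% of them fell, against a median of 0.11 and 9.18% for genes under 2 kb. After removal of a smooth trend of fold change on length and GC content, 14 integrins still fell and 4 rose, while 3 laminin chains fell and 1 rose. The median log2 fold change was then -0.25 over the integrins and 0.00298 over the laminin chains, against 0.08 over all genes in that setting. Over all genes that setting gave 4996 higher and 2597 lower calls, 32.7% and 17.0% of 15258 genes, against 3723 and 3950 calls without it. The removed fit included each library's mean level, so 0 in that setting is not the middle of all genes. Values from it are given as the trend-corrected log2 fold change where they end a call, turn a direction or move the log2 fold change of a called gene by over 1.5 times.

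**Figure D1:**
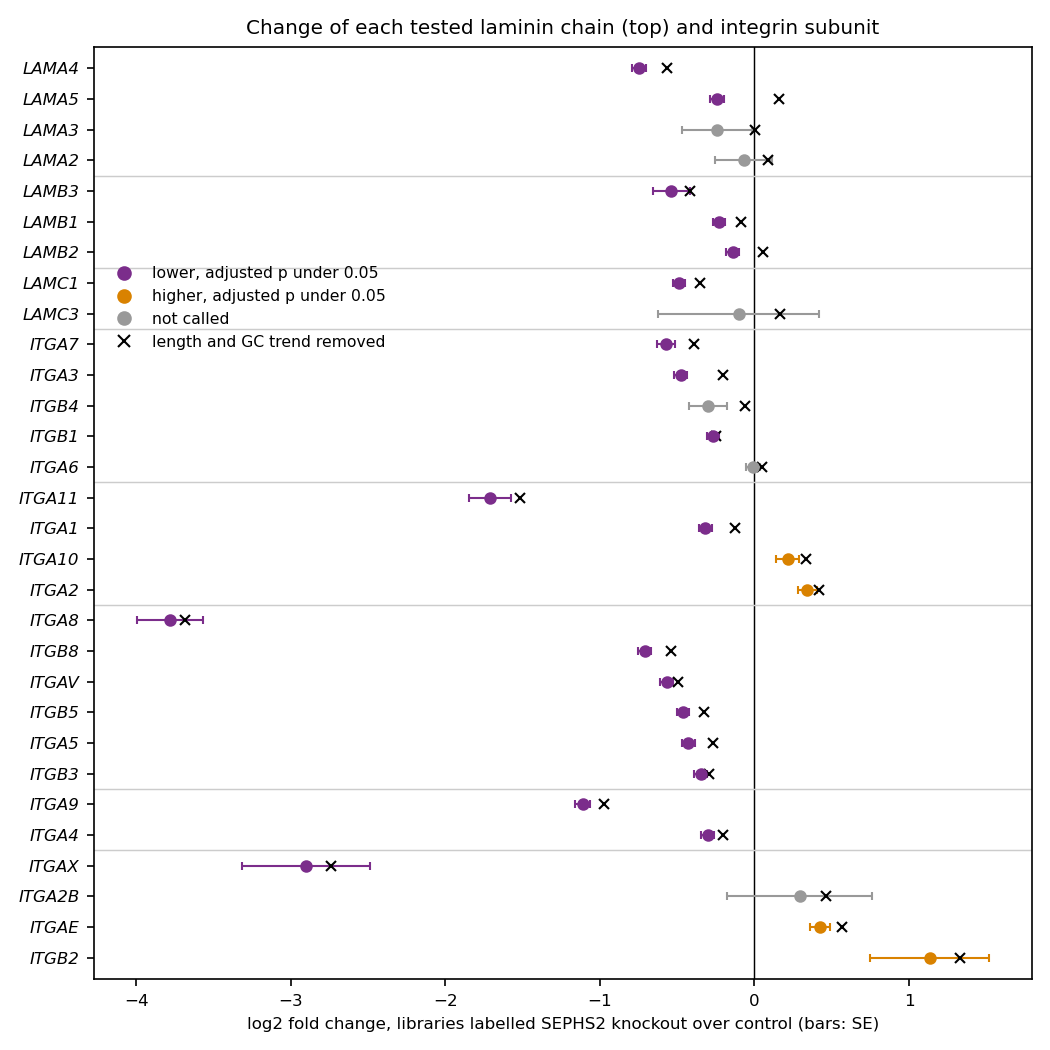
Log2 fold change of the 30 tested members, libraries labelled SEPHS2 knockout over control, with bars for the SE of the fit and crosses for the fit with the length and GC trend removed. Grey lines part, from the top, laminin alpha, beta and gamma chains, laminin receptor subunits, collagen receptor subunits, RGD receptor subunits, ITGA4 with ITGA9, and leukocyte or platelet subunits. Most points lie left of 0, and the points of LAMA2, LAMA3, LAMA5, LAMB2, LAMC3 and ITGA6 lie left of it with crosses right of it. In the fit shown by crosses the median of all genes was 0.08.

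The laminin chains that A-375 cells express in quantity were LAMB1, LAMC1, LAMB2, LAMA4 and LAMA5. All of these fell without the trend correction, against 23.4% of all tested genes. LAMB1 (chromosome 7, 107923799 to 108003161, GRCh38.p14), the beta chain of most laminins, had 988, 1010.4 and 1046 CPM in the libraries labelled knockout, against 1198, 1195 and 1172 CPM in the control libraries. The groups did not overlap, log2 fold change -0.23 with an SE of 0.04 and an edgeR adjusted p of 7.87e-05, with a trend-corrected value of -0.09 (edgeR adjusted p = 0.0698). LAMC1 (chromosome 1, 183023420 to 183145592), the gamma chain shared by nearly all laminins outside the epidermis, had 906, 863 and 885 CPM in the libraries labelled knockout, against 1258, 1239 and 1226 CPM in the control libraries. Every library labelled knockout lay below every control library, log2 fold change -0.49 with an SE of 0.04 and an edgeR adjusted p of 2.13e-09. LAMB2, the beta chain of laminins at the neuromuscular synapse and the kidney filter, had 177, 175 and 173 CPM in the libraries labelled knockout, against 199, 194 and 185 CPM in the control libraries. It fell by little, log2 fold change -0.14 with an SE of 0.04 and an edgeR adjusted p of 0.00788, a call that was lost without control replicate 1 (-0.12, adjusted p = 0.0526) and that had a trend-corrected value of 0.06 (edgeR adjusted p = 0.229).

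The alpha chain decides which integrins a laminin engages, and the 2 abundant alpha chains had different log2 fold changes. LAMA4 (chromosome 6, 112107931 to 112254985), the alpha chain of laminins of blood vessels and mesenchymal tissue, had 212, 203 and 224 CPM in the libraries labelled knockout, against 349.8, 362 and 359 CPM in the control libraries. It had the steepest fall of the tested laminin chains, log2 fold change -0.75 with an SE of 0.04 and an edgeR adjusted p of 9.40e-12. LAMA5 (chromosome 20, 62309065 to 62367312), the alpha chain of the most widespread adult basement membrane laminins, had 259, 257 and 266 CPM in the libraries labelled knockout, against 328, 310.0 and 288 CPM in the control libraries. Its groups did not overlap either, log2 fold change -0.24 with an SE of 0.05 and an edgeR adjusted p of 1.65e-04, but the trend-corrected value had the other sign, 0.16 (edgeR adjusted p = 0.00171), so the direction of LAMA5 depended on that setting. LAMA2, the alpha chain of muscle and peripheral nerve, had 1.87, 2.00 and 2.07 CPM in the libraries labelled knockout, against 1.78, 2.54 and 1.93 CPM in the control libraries. Those groups overlapped and LAMA2 was not called, log2 fold change -0.07 with an SE of 0.19 and an edgeR adjusted p of 0.79.

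Levels of different genes were compared per length, as CPM per kilobase of annotated exon. LAMB1 stood at 125 ± 3.55 CPM per kilobase in the libraries labelled knockout and 146 ± 1.72 in the control libraries (SD, n = 3 each here and below), and LAMC1 at 105 ± 2.60 CPM per kilobase in the libraries labelled knockout and 148 ± 1.92 in the control libraries. LAMA4 stood at 18.4 ± 0.902 CPM per kilobase in the libraries labelled knockout and 30.8 ± 0.550 in the control libraries, and LAMA5 at 18.2 ± 0.320 CPM per kilobase in the libraries labelled knockout and 21.6 ± 1.41 in the control libraries. The alpha chains were therefore the scarcer mRNAs: LAMA4 and LAMA5 together summed to 36.4, 35.5 and 37.9 CPM per kilobase in the libraries labelled knockout and 53.2, 53.0 and 51.1 in the control libraries, against 149, 151 and 155 and 178, 178 and 173 for the beta chains in the same order of groups. The analysed gamma chains summed to 108, 103 and 105 CPM per kilobase in the libraries labelled knockout and 149.7, 147 and 146 in the control libraries. The ratio of LAMA4 to LAMA5 was 1.01, 0.973 and 1.04 in the libraries labelled knockout, against 1.32, 1.44 and 1.54 in the control libraries. The ratio was lower in each library labelled knockout than in each control library, a difference of -0.51 in the log2 ratio. The level of such a ratio depends on the length used, and with the longest transcript as length LAMA4 was above LAMA5 in both groups, at 32.5 and 22.8 CPM per kilobase in the libraries labelled knockout, whereas the log2 difference between groups does not depend on it. With the trend-corrected log2 fold changes of the members, chosen as an alternative after the data were seen, that difference was -0.73. Of 8 such ratios computed, 7 did not overlap between the groups. The exact 2-sided permutation test gave each of those 7 p = 0.1, the smallest that 3 against 3 allows, and an adjusted p of 0.114 over the 8 ratios, so none passed.

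LAMC1 is assembled with LAMB1. Their ratio, LAMC1 over LAMB1, was 0.888, 0.827 and 0.820 in the libraries labelled knockout, against 1.02, 1.00 and 1.01 in the control libraries, a difference of -0.26 in the log2 ratio, without overlap, and of -0.26 with trend-corrected values. The ratio of LAMB1 to LAMB2 was 4.72, 4.87 and 5.10 in the libraries labelled knockout, against 5.08, 5.18 and 5.35 in the control libraries, and these groups overlapped (exact permutation p = 0.2, adjusted p = 0.2). Its log2 difference was -0.09, and -0.14 with trend-corrected values.

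LAMA3 and LAMB3 are chains of the laminin that anchors the epidermis, and both were scarce. Their sum was 1.84, 1.45 and 1.40 CPM per kilobase in the libraries labelled knockout and 2.17, 2.56 and 1.99 in the control libraries, most of it LAMB3. LAMB3 had 8.29, 6.43 and 6.19 CPM in the libraries labelled knockout, against 9.75, 11.5 and 8.94 CPM in the control libraries. It fell, log2 fold change -0.54 with an SE of 0.12 and an edgeR adjusted p of 8.18e-04. LAMA3 had 1.05, 1.18 and 1.209 CPM in the libraries labelled knockout, against 1.33, 1.48 and 1.28 CPM in the control libraries. The groups did not overlap, but LAMA3 was not called, log2 fold change -0.24 with an SE of 0.23 and an edgeR adjusted p of 0.416. It lies on chromosome 18, where the median log2 fold change of the 14 expressed genes within 2 Mb was 0.44. The gamma chain LAMC3 had 26 reads over the libraries labelled knockout and 29 over the control libraries, and the beta chain LAMB4 had 10 and 11.

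Promoter windows of 250 bases before to 50 bases after a transcript start (RefSeq, GRCh38.p14) were matched for 26 of the 36 members and searched on both strands for 3 motifs. These were the AP-1 site (TGACTCA or TGAGTCA), the GC box bound by SP1 (GGGCGG) and the TEAD site (GGAATG), with no overlap between motifs. Of all promoter windows, 4.95% held the AP-1 site, 45.0% the GC box and 14.0% the TEAD site. Among the 26 members the AP-1 site was in the windows of ITGA5, LAMA3 and LAMB3, the TEAD site in those of ITGA5, ITGA10, ITGB1 and LAMA2, and the GC box in those of 14 members. The shares above count windows, and a gene can have several. Of the 33 windows of members, 3 held the AP-1 site, 19 the GC box and 4 the TEAD site. A match is only a match of letters. LAMA4, the chain with the lowest log2 fold change, and LAMB3, the epidermal chain that fell, are shown here with motif letters in capitals.
LAMA4 (chr6:112254518-112254817, minus strand): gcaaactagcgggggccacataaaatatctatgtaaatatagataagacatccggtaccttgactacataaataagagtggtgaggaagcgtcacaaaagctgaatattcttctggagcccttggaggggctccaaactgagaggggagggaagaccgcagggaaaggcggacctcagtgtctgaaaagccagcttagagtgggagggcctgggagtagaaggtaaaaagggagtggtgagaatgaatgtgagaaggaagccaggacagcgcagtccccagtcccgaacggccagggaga
LAMB3 (chr1:209651325-209651624, minus strand): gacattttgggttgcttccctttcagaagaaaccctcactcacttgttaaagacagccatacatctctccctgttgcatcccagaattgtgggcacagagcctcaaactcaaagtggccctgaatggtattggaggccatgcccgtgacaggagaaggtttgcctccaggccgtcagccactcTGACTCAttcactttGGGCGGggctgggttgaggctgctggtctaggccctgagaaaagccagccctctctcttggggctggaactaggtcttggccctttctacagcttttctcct
The LAMA4 window held none of the 3 motifs, and the LAMB3 window, 1 of 3 listed for that gene, held 1 AP-1 site and 1 GC box.

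**Figure D2:**
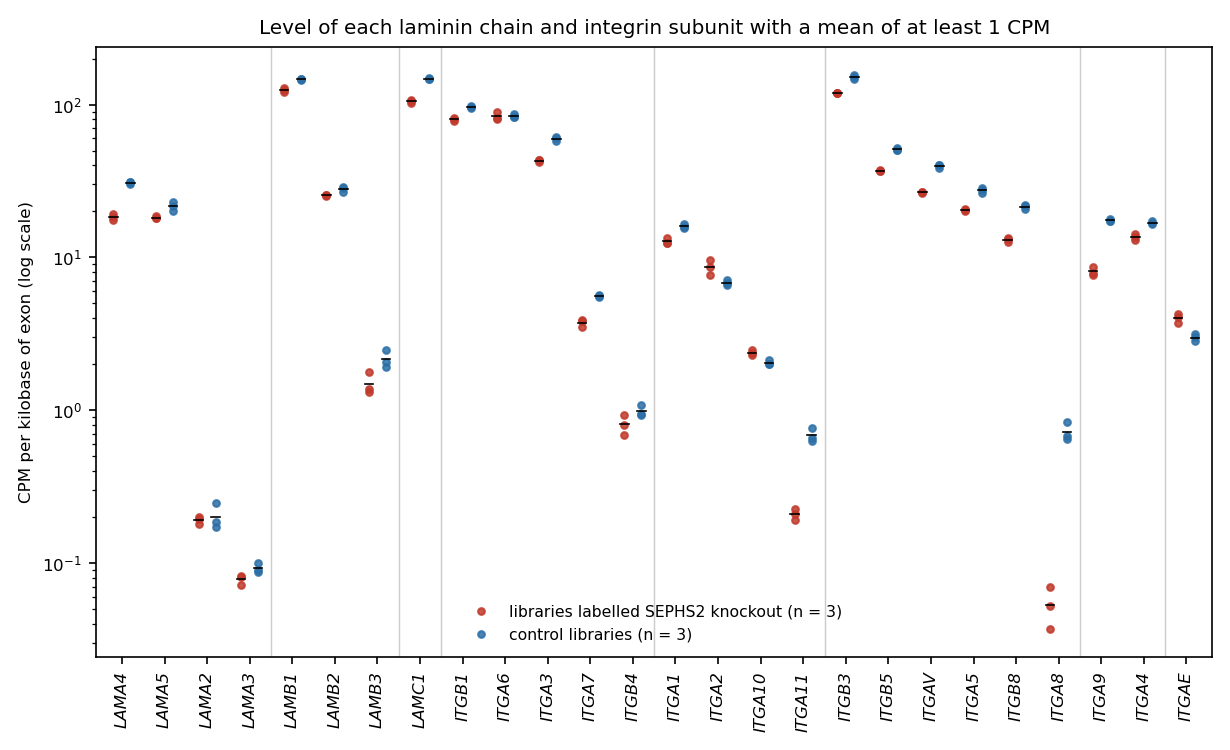
Level of each member with a mean of at least 1 CPM, in CPM per kilobase of annotated exon on a log axis, with 1 point per library and a bar at the mean of each group. Grey lines part the same classes as in the plot of log2 fold changes. LAMB1, LAMC1, ITGB3, ITGA6 and ITGB1 are the highest, and ITGA8 shows the widest gap between the groups.

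Of the 5 laminin receptor subunits, ITGA3, ITGA7 and ITGB1 fell, against 23.4% of all tested genes, while ITGA6 and ITGB4 were not called. ITGB1 (chromosome 10, 32900318 to 32958230), the beta subunit with the widest choice of alpha partners, had 488, 471 and 482 CPM in the libraries labelled knockout, against 587, 579 and 572 CPM in the control libraries. The groups did not overlap, log2 fold change -0.27 with an SE of 0.04 and an edgeR adjusted p of 8.01e-06. ITGA3 (chromosome 17, 50056110 to 50090481), which with ITGB1 holds laminins that carry LAMA3 or LAMA5, had 426, 422 and 412 CPM in the libraries labelled knockout, against 603, 588 and 563 CPM in the control libraries. The groups were apart, log2 fold change -0.48 with an SE of 0.04 and an edgeR adjusted p of 4.90e-09, with a trend-corrected value of -0.20 (edgeR adjusted p = 7.05e-05). ITGA7, best known as the laminin receptor subunit of skeletal muscle, had 22.2, 24.5 and 24.8 CPM in the libraries labelled knockout, against 35.0, 35.9 and 35.6 CPM in the control libraries. All its libraries labelled knockout were below all control libraries, log2 fold change -0.57 with an SE of 0.06 and an edgeR adjusted p of 4.56e-08.

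ITGA6 (chromosome 2, 172427336 to 172506459), whose pairs with ITGB1 and ITGB4 bind a wide range of laminins, had 582, 526 and 535 CPM in the libraries labelled knockout, against 571, 538 and 544 CPM in the control libraries. The groups overlapped and no difference was called, log2 fold change -0.01 with an SE of 0.04 and an edgeR adjusted p of 0.896. ITGB4, the long-tailed beta subunit of hemidesmosomes, had 6.30, 5.39 and 4.66 CPM in the libraries labelled knockout, against 7.36, 6.30 and 6.41 CPM in the control libraries. It missed the threshold narrowly, log2 fold change -0.30 with an SE of 0.12 and an edgeR adjusted p of 0.0541, and passed it in 6 alternatives, for instance without knockout replicate 1 (-0.41, adjusted p = 0.0133), while its trend-corrected value was -0.06 (edgeR adjusted p = 0.692). Per length, ITGB4 stood at 0.806 ± 0.121 CPM per kilobase in the libraries labelled knockout and 0.989 ± 0.0859 in the control libraries, and ITGA6 at 83.8 ± 4.60 CPM per kilobase in the libraries labelled knockout and 84.3 ± 2.66 in the control libraries.

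Receptor subunits were then set against each other per length. The ratio of ITGA6 to ITGA3 was 2.05, 1.87 and 1.94 in the libraries labelled knockout, against 1.42, 1.37 and 1.45 in the control libraries, a difference of 0.47 in the log2 ratio. The ratio of ITGA6 to ITGB1 was 1.10, 1.03 and 1.02 in the libraries labelled knockout, against 0.894, 0.855 and 0.874 in the control libraries, a difference of 0.26 in the log2 ratio. Neither ratio overlapped between the groups. With trend-corrected log2 fold changes these differences were 0.25 for ITGA6 over ITGA3 and 0.29 for ITGA6 over ITGB1. ITGA6 was below ITGB1 in each control library and above it in each library labelled knockout, but with the longest transcript as length it was below ITGB1 in both groups, at 97.5 and 127 CPM per kilobase in the libraries labelled knockout. The 3 laminin-binding alpha subunits summed to 136, 127 and 128 CPM per kilobase in the libraries labelled knockout and 154, 148 and 146 in the control libraries, while their ligands' alpha chains LAMA4 and LAMA5 summed to 36.4, 35.5 and 37.9 in the libraries labelled knockout and 53.2, 53.0 and 51.1 in the control libraries. Both the receptor sum and the ligand sum were lower in every library labelled knockout than in every control library. These sums were not trend-corrected. The trend-corrected log2 fold changes were -0.57 for LAMA4 and 0.16 for LAMA5. Among the receptor subunits they were -0.20 for ITGA3, -0.39 for ITGA7 and 0.05 for ITGA6, which was not called (edgeR adjusted p = 0.385).

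**Figure D3:**
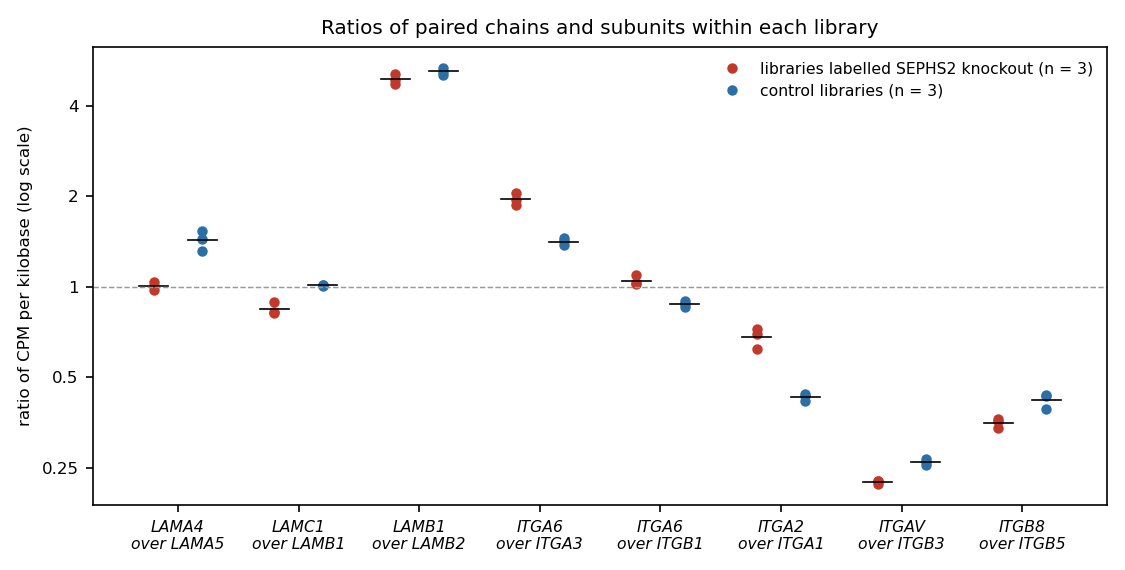
Ratio of CPM per kilobase between 2 members in each library, on a log axis, with a bar at each group's mean and a dashed line at 1. The ratio of LAMB1 to LAMB2 overlaps between the groups, and the other 7 ratios do not.

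The 4 collagen receptor subunits, which all pair with ITGB1, split evenly, with ITGA1 and ITGA11 lower and ITGA2 and ITGA10 higher. Of all tested genes, 23.4% were lower and 22.0% higher. ITGA1 (chromosome 5, 52787916 to 52959209), which prefers the network collagen of basement membranes, had 248, 231 and 232 CPM in the libraries labelled knockout, against 305, 289 and 293 CPM in the control libraries. It was called lower, log2 fold change -0.32 with an SE of 0.04 and an edgeR adjusted p of 2.71e-06, with a trend-corrected value of -0.12 (edgeR adjusted p = 0.0078). ITGA2 (chromosome 5, 52989352 to 53094779), which prefers fibrillar collagens and also pairs with ITGB1 as a laminin receptor in some cells, had 76.3, 61.1 and 68.6 CPM in the libraries labelled knockout, against 56.3, 54.0 and 52.1 CPM in the control libraries. It rose, log2 fold change 0.34 with an SE of 0.06 and an edgeR adjusted p of 1.20e-04, and no library labelled knockout was as low as any control library. The genes lie next to each other on chromosome 5, and their ratio, ITGA2 over ITGA1, was 0.721, 0.621 and 0.695 in the libraries labelled knockout, against 0.433, 0.439 and 0.417 in the control libraries, a difference of 0.66 in the log2 ratio and of 0.54 with trend-corrected values.

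The promoter windows of this neighbouring pair are shown because the genes share a locus and differed in direction. Motif letters are in capitals.
ITGA1 (chr5:52787666-52787965, plus strand): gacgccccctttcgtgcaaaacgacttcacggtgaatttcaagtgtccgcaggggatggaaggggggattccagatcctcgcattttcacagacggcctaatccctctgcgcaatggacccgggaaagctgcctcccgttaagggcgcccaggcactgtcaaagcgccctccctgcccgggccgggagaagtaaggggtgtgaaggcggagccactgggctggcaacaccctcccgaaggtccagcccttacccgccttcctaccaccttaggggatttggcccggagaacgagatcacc
ITGA2 (chr5:52989102-52989401, plus strand): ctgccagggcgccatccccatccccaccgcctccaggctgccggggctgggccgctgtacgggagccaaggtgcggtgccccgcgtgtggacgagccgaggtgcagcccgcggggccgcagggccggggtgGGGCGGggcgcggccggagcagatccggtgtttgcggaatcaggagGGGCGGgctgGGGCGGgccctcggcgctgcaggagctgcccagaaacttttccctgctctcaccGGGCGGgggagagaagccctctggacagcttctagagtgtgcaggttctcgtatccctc
The ITGA2 window held 4 GC boxes and neither other motif, and the ITGA1 window held none of the 3.

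ITGA11, a receptor for fibrillar collagen best known in fibroblasts, had 2.28, 2.46 and 2.07 CPM in the libraries labelled knockout, against 7.17, 6.85 and 8.34 CPM in the control libraries. That was 3.27 times more in the control libraries, log2 fold change -1.71 with an SE of 0.13 and an edgeR adjusted p of 1.21e-09. Fibroblast markers summed to 56.1 to 62.4 CPM in the libraries labelled knockout and 79.4 to 82.4 CPM in the control libraries. PDGFRB, the highest of them, averaged 28.9 and 52.5 CPM in the same order of groups. Of the 8 tested, 3 fell and 2 rose (LUM and TWIST2), against 23.4% and 22.0% of all tested genes. Their median log2 fold change was -0.04, and their part in the result was not tested. ITGA10, known from cartilage, had 14.5, 15.0 and 15.6 CPM in the libraries labelled knockout, against 12.7, 12.6 and 13.5 CPM in the control libraries. It rose slightly, log2 fold change 0.22 with an SE of 0.07 and an edgeR adjusted p of 0.0203, with a trend-corrected value of 0.34 (edgeR adjusted p = 5.29e-04). The call without the correction was lost without knockout replicate 3 (adjusted p = 0.0669), without control replicate 1 (0.0731) and without control replicate 2 (0.0739), and with DESeq2 (adjusted p = 0.0655).

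All 6 tested subunits of receptors for RGD ligands fell, against 23.4% of all tested genes, whereas ITGB6 was at the floor. ITGB3 (chromosome 17, 47253827 to 47313743), the vitronectin receptor subunit linked to invasive melanoma, had 522, 524 and 523 CPM in the libraries labelled knockout, against 664, 645 and 689 CPM in the control libraries. The groups did not overlap, log2 fold change -0.35 with an SE of 0.04 and an edgeR adjusted p of 3.89e-07, although 51.6% of its annotated exon bases are shared with a same-strand gene model, so its reads could be split. ITGAV (chromosome 2, 186590056 to 186680901), the alpha partner of ITGB1, ITGB3, ITGB5, ITGB6 and ITGB8, had 221, 216 and 220.1 CPM in the libraries labelled knockout, against 331.7, 314 and 329 CPM in the control libraries. It fell, log2 fold change -0.57 with an SE of 0.04 and an edgeR adjusted p of 2.46e-10. ITGB5, a further vitronectin receptor subunit, had 238, 239.6 and 238 CPM in the libraries labelled knockout, against 324, 337 and 324 CPM in the control libraries. Its replicates lay close together and well apart from the controls, log2 fold change -0.46 with an SE of 0.04 and an edgeR adjusted p of 4.85e-09.

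ITGB8, whose pair with ITGAV activates latent TGF-beta, had 190.1, 201 and 204 CPM in the libraries labelled knockout, against 332.2, 312 and 329.9 CPM in the control libraries. It had the steepest fall of the tested ITGAV partners, log2 fold change -0.71 with an SE of 0.04 and an edgeR adjusted p of 1.84e-11. ITGA5 (chromosome 12, 54395261 to 54419266), the fibronectin receptor subunit, had 156, 155 and 152 CPM in the libraries labelled knockout, against 214, 208 and 201 CPM in the control libraries. Again no library labelled knockout reached a control library, log2 fold change -0.43 with an SE of 0.04 and an edgeR adjusted p of 2.51e-08, with a trend-corrected value of -0.27 (edgeR adjusted p = 3.28e-06). ITGA8 (chromosome 10, 15513954 to 15719922), a receptor subunit for nephronectin known from kidney development, had 0.527, 0.279 and 0.395 CPM in the libraries labelled knockout, against 4.89, 5.13 and 6.29 CPM in the control libraries. This was the largest change of any tested member, 13.8 times more in the control libraries, log2 fold change -3.78 with an SE of 0.21 and an edgeR adjusted p of 7.36e-12. Its 23 expressed neighbours within 2 Mb had a median log2 fold change of 0.03.

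ITGAV pairs with ITGB3, ITGB5 and ITGB8. The ratio of ITGAV to ITGB3 was 0.227, 0.221 and 0.225 in the libraries labelled knockout, against 0.267, 0.261 and 0.256 in the control libraries, a difference of -0.22 in the log2 ratio. The ratio of ITGB8 to ITGB5 was 0.339, 0.358 and 0.364 in the libraries labelled knockout, against 0.437, 0.394 and 0.433 in the control libraries, a difference of -0.25, and neither overlapped. With trend-corrected values the differences were -0.20 for ITGAV over ITGB3 and -0.21 for ITGB8 over ITGB5. Per length ITGB3 was the most abundant integrin subunit in either group, at 119 ± 0.279 CPM per kilobase in the libraries labelled knockout and 152 ± 5.00 in the control libraries, and its rank was the same with the longest transcript as length. ITGAV stood at 26.7 ± 0.330 CPM per kilobase in the libraries labelled knockout and 39.6 ± 1.15 in the control libraries, below ITGB5 at 37.0 ± 0.150 CPM per kilobase in the libraries labelled knockout and 50.9 ± 1.23 in the control libraries.

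The windows of ITGA8, with the largest change, and of ITGA5, the one member whose window held all 3 motifs, are shown with motif letters in capitals.
ITGA8 (chr10:15719873-15720172, minus strand): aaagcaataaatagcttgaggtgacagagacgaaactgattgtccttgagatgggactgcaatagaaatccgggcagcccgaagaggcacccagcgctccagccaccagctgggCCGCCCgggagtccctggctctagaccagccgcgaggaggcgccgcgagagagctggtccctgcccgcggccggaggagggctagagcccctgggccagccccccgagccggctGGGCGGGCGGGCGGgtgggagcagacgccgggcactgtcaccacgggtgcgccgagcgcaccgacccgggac
ITGA5 (chr12:54419217-54419516, minus strand): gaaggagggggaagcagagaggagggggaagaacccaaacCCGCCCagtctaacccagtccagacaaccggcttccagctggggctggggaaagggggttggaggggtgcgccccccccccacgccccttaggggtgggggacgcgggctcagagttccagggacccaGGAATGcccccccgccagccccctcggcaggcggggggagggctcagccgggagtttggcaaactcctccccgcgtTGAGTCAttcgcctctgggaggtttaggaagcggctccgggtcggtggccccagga
The ITGA8 window held 4 GC boxes, overlapping ones counted, and ITGA5 held 1 site of each motif.

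ITGA4 and ITGA9 are close relatives that bind cell-surface VCAM1 and matrix ligands, and both fell, against 23.4% of all tested genes. ITGA9 (chromosome 3, 37452141 to 37823507), for which tenascin C is a ligand, had 65.8, 63.6 and 71.5 CPM in the libraries labelled knockout, against 144, 148 and 142 CPM in the control libraries. That was 2.16 times more in the control libraries, log2 fold change -1.11 with an SE of 0.05 and an edgeR adjusted p of 7.87e-14. The antisense gene ITGA9-AS1 shares 6.46% of its exon bases. ITGA4, the subunit that holds leukocytes to VCAM1 and also marks cells of neural crest descent, had 112, 103 and 108 CPM in the libraries labelled knockout, against 136, 132 and 130.2 CPM in the control libraries. Its groups did not overlap, log2 fold change -0.30 with an SE of 0.04 and an edgeR adjusted p of 8.00e-06. Tenascin C (TNC) itself had 1012, 1109 and 1148 CPM in the libraries labelled knockout, against 2719, 2712 and 2656 CPM in the control libraries, log2 fold change -1.31 with an SE of 0.05 and an edgeR adjusted p of 5.10e-15.

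Subunits known from leukocytes and platelets were rare, and the one above 1 CPM in both groups was ITGAE. ITGAE, which in T cells pairs with ITGB7 to hold E-cadherin, had 28.4, 27.2 and 24.7 CPM in the libraries labelled knockout, against 18.8, 20.1 and 20.8 CPM in the control libraries. It rose, log2 fold change 0.43 with an SE of 0.07 and an edgeR adjusted p of 1.70e-05, while its partner ITGB7 had 29 reads over the libraries labelled knockout and 10 over the control libraries and was not tested. The gene HASPIN and a noncoding gene on the opposite strand share 7.59% of ITGAE's exon bases, and reads from the 2 strands cannot be told apart where the strand setting is not given. ITGAX, the alpha subunit of a complement receptor of myeloid cells, had 0.234, 0.0929 and 0.173 CPM in the libraries labelled knockout, against 1.28, 0.896 and 1.53 CPM in the control libraries. Its level fell, log2 fold change -2.90 with an SE of 0.41 and an edgeR adjusted p of 6.41e-06. With 8, 4 and 7 reads in the libraries labelled knockout, ITGAX passed the filter on low counts only through the control libraries, where it was high. Its call, 1 of the 14 lower integrin calls, is therefore not independent of that filter. ITGB2, the beta subunit of leukocyte integrins, had 0.527, 0.789 and 0.814 CPM in the libraries labelled knockout, against 0.308, 0.412 and 0.251 CPM in the control libraries. It rose, log2 fold change 1.13 with an SE of 0.39 and an edgeR adjusted p of 0.0201, a call lost without knockout replicate 2 (adjusted p = 0.0729), without knockout replicate 3 (0.0741), without control replicate 1 (0.0665) or without control replicate 3 (0.0758). ITGA2B, the platelet fibrinogen receptor subunit, was tested and not called, with 39 reads over the libraries labelled knockout and 33 over the control libraries.

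The other alpha subunits that pair with ITGB2 were at the floor of detection. ITGAL had 5 reads over the libraries labelled knockout and 2 over the control libraries. ITGAM had 2 and 6 reads in the same order, and ITGAD 17 and 10. Leukocyte and platelet markers summed to 8.26 to 8.35 CPM in the libraries labelled knockout and 4.82 to 5.94 CPM in the control libraries, most of it LYZ. The defining markers CD3D, CD3E, PF4, PPBP, GP9 and TYROBP were not among the rows of the table. Of the 4 tested markers 1 was higher, near the 22.0% of all tested genes that rose. Their part in the result was not tested.

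Other adhesion genes, in 4 lists, were read beside these genes. The first holds the proteins that activate integrins or link them to actin. Of 42 tested, 15 fell and 9 rose, against 23.4% and 22.0% of all tested genes, and the median log2 fold change was -0.01. The trend-corrected fit had 7 lower and 19 higher, against 17.0% and 32.7% of all genes, and a median of 0.14. ARHGEF7, an exchange factor for Rac and Cdc42 at adhesions, had 81.3, 76.4 and 74.4 CPM in the libraries labelled knockout, against 119, 112 and 111 CPM in the control libraries. It was called lower, log2 fold change -0.56 with an SE of 0.05 and an edgeR adjusted p of 3.05e-09, with a trend-corrected value of -0.37 (edgeR adjusted p = 1.30e-07), and lies on chromosome 13, whose expressed genes had a median log2 fold change of -0.41, and the chromosome's part in the result was not tested. The tensins TNS3 and TNS1, which tie integrin tails to actin, had log2 fold changes of -0.42 and -1.76 (edgeR adjusted p = 5.92e-08 and 1.45e-06). For TNS3 the trend-corrected value was -0.18 (edgeR adjusted p = 6.19e-04). ACTN4, an actin crosslinker, had 866, 809.8 and 785 CPM in the libraries labelled knockout, against 997, 1006 and 958 CPM in the control libraries. It fell by 0.27 on the log2 scale, with a trend-corrected value of -0.11 (edgeR adjusted p = 0.0299). Talin (TLN1), the main activator of integrins, had 294, 265 and 259 CPM in the libraries labelled knockout, against 345, 333 and 307 CPM in the control libraries. This gene fell, log2 fold change -0.27 with an SE of 0.05 and an edgeR adjusted p of 1.80e-04, with a trend-corrected value of -0.03 (edgeR adjusted p = 0.608), whereas the kindlin FERMT2, its partner in activation, rose, log2 fold change 0.14 with an SE of 0.05 and an edgeR adjusted p of 0.0134; both were named after their values were seen.

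Among basement membrane components other than laminins, 16 of 24 tested fell and 2 rose, with a median log2 fold change of -0.45, whereas the trend-corrected fit had 15 lower and 6 higher and a median of -0.29. For scale, 23.4% of all tested genes fell and 22.0% rose, and 17.0% and 32.7% in the trend-corrected fit. Nidogen (NID1), which ties laminin to the collagen network, had 298, 304 and 304 CPM in the libraries labelled knockout, against 549, 537 and 529 CPM in the control libraries. It was lower without overlap, log2 fold change -0.83 with an SE of 0.04 and an edgeR adjusted p of 3.95e-13. COL4A2, a chain of that network collagen, had 463, 459.9 and 445 CPM in the libraries labelled knockout, against 822, 804 and 808 CPM in the control libraries. It fell, log2 fold change -0.83 with an SE of 0.04 and an edgeR adjusted p of 4.39e-13, with a trend-corrected value of -0.46 (edgeR adjusted p = 8.07e-10), and lies on chromosome 13, as does FREM2, a basement membrane protein of the Fraser complex, at -1.42 (edgeR adjusted p = 1.84e-15). Peroxidasin (PXDN), which crosslinks the network collagen, had 0.00, 0.232 and 0.0987 CPM in the libraries labelled knockout, against 8.80, 9.88 and 9.52 CPM in the control libraries. It was close to absent from the libraries labelled knockout, log2 fold change -6.27 with an SE of 0.27 and an edgeR adjusted p of 1.07e-13. PXDN passed the filter on low counts only through the control libraries, so its call is not independent of that filter.

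Integrin ligands other than laminins fell in 18 of 30 tested genes and rose in 4, against 23.4% and 22.0% of all tested genes. Their median log2 fold change was -0.48. The trend-corrected fit had 16 lower and 5 higher, against 17.0% and 32.7% of all genes, and a median of -0.33. Fibronectin (FN1), the ligand of ITGA5, had 13.7, 13.9 and 15.2 CPM in the libraries labelled knockout, against 63.9, 57.3 and 50.2 CPM in the control libraries. The change was a fall, log2 fold change -2.00 with an SE of 0.08 and an edgeR adjusted p of 1.19e-14. ICAM1, the ligand of leukocyte integrins, fell by 1.46 on the log2 scale, with 45.9, 47.9 and 52.3 CPM in the libraries labelled knockout, against 136, 132 and 134 CPM in the control libraries. In the other direction, osteopontin (SPP1), an RGD ligand of ITGAV pairs, had 169, 166 and 166 CPM in the libraries labelled knockout, against 70.3, 72.5 and 76.2 CPM in the control libraries. That was 2.29 times more in the libraries labelled knockout (edgeR adjusted p = 6.32e-15), so RGD ligands changed in both directions.

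Receptors and partners of laminins other than integrins were mixed, 10 lower and 6 higher of 23 tested, with a median of -0.15. Among all tested genes 23.4% fell and 22.0% rose. The trend-corrected fit had 7 lower and 10 higher, against 17.0% and 32.7% of all genes, and a median of 0.09. The syndecans, heparan sulfate proteins that act as co-receptors, moved apart. SDC1 had 72.4, 65.6 and 57.8 CPM in the libraries labelled knockout, against 25.7, 25.2 and 24.1 CPM in the control libraries. It rose, log2 fold change 1.38 with an SE of 0.07 and an edgeR adjusted p of 5.08e-13. SDC2 had 33.1, 34.1 and 35.2 CPM in the libraries labelled knockout, against 80.8, 86.2 and 88.1 CPM in the control libraries. It fell, log2 fold change -1.32 with an SE of 0.05 and an edgeR adjusted p of 1.20e-14, and SDC4 fell by 0.42 on the log2 scale (edgeR adjusted p = 3.92e-08). CAV1, the caveolar coat protein that binds integrins at the membrane, rose by a log2 fold change of 0.87 (edgeR adjusted p = 4.62e-10).

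**Figure D4:**
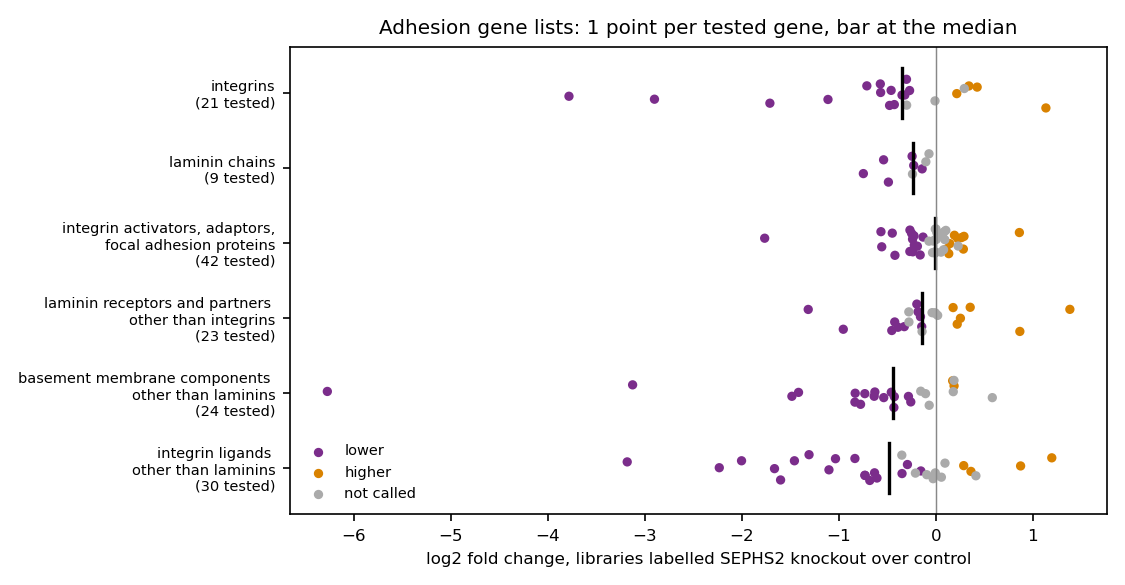
Log2 fold change of every tested gene of the integrins, the laminin chains and the 4 adhesion lists, libraries labelled SEPHS2 knockout over control, coloured by its call, with a bar at the median of each row. The medians of the ligand and basement membrane lists, -0.48 and -0.45, lie left of those of the integrins (-0.35) and laminin chains (-0.24), and the median of the activators and adaptors (-0.01) lies near 0.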

How the data were processed

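The authors deposited raw read counts per gene symbol, not normalized, for 3 libraries labelled SEPHS2 knockout and 3 control libraries of A-375 cells. Per the submitters' processing notes, HISAT2 2.2.1 and featureCounts 2.0.6 were used with GRCh38. The annotation, strand setting and handling of multimapped reads were not given in the sources used here. Groups and replicate numbers came from the sample titles.

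Counts were tested with edgeR 4.0.16 in R 4.3.3: TMM factors, the default expression filter (16910 of 21631 genes kept) and the quasi-likelihood test, 2-sided, with Benjamini-Hochberg adjustment over all tested genes and a threshold of 0.05. SE is the log2 fold change divided by the root of the F statistic. CPM used TMM-scaled library sizes. Exon lengths and GC content came from GENCODE release 29, for 90.2% of tested genes and all 36 members, and positions from RefSeq GRCh38.p14. Ratios were tested with an exact permutation test in scipy 1.17.1. In simulated counts for this comparison over 16910 genes, 200 genes were changed, in equal numbers for each fold. There edgeR recovered 40%, 68%, 88% and 98% of genes changed 1.2, 1.5, 2 and 4-fold, with 14 false calls. In the data 45.4% of tested genes were called, a far larger share than was changed in the simulation, so these rates may not carry over. Alternatives changed 1 choice each: upper-quartile or RLE scaling, filters (none, or 1 CPM in at least 3 libraries), the tool (limma-voom with limma 3.58.1, or DESeq2 1.42.0), a replicate block, each library left out, a threshold of 0.01 and removal of the length and GC trend (mgcv 1.9.3). The length of the longest transcript and the trend correction of ratios were added after the data were seen. The members, lists and ratios were chosen with earlier results of these data known. 2 laminin chains and 1 marker gene are not reported here. Every analysed member is named; values per library are given for called members with a mean of at least 1 CPM, and up to 4 genes per list were taken by smallest adjusted p unless said otherwise.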

Additional observations from a re-analysis of the deposited data

How the results depend on the processing

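Of the refits of a single member that passed the default expression filter, 426 kept their direction where a call was at stake and their side of the threshold. Of the others, 12 lost a call, 6 gained one, all of ITGB4, and 2 turned a called direction. Those 2 came from removing the length and GC trend, a setting with a median of 0.08 over all genes. LAMA5 was then at 0.16, and LAMB2 was at 0.0558, below that median and no longer called. Removing the trend also gave 3 lower and 1 higher laminin chains, 7 lower and 19 higher activators and adaptors, 10 higher laminin partners and 6 higher basement membrane genes. In all, 2597 genes or 17.0% were then lower, and 32.7% were higher. At a threshold of 0.01, 2 integrins were called higher, against 16.3% of all genes. With 1 library left out, 2 to 5 integrins were higher and 14 to 15 lower, and 5 to 6 laminin chains were lower, against 19.0% to 22.6% of all genes lower and 17.8% to 20.6% higher. The 2 came without knockout replicate 3 and without control replicate 1. The 5 integrins called higher without knockout replicate 1 included a member that the default filter on all 6 libraries had left out. With the replicate number as a block, 15 integrins were lower and 4 higher (all genes 23.6% and 22.3%), ITGB4 gained a call and no other member's call changed. Same-numbered libraries deviated with correlations of 0.01, -0.09 and -0.25, and differently numbered ones with -0.25 to 0.30. With 3 libraries per group these values cannot show whether same-numbered samples share a culture or preparation. RLE and upper-quartile factors moved the median of all genes by less than 0.01. Ranked by the longest transcript instead of all exons, LAMB1 and ITGB3 stayed the highest in the libraries labelled knockout. Members under about 1 CPM rest on few reads, and counts without molecular identifiers cover counting error only.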

Other observations

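ILK, which encodes the integrin-linked kinase that binds beta subunit tails, was listed at only 1.17, 1.56 and 0.888 CPM in the libraries labelled knockout and 1.26, 1.11 and 1.28 CPM in the control libraries, while its complex partners PARVA and RSU1 averaged 84.6 ± 2.18 and 52.1 ± 1.77 CPM in the libraries labelled knockout and 72.5 ± 1.57 and 42.8 ± 1.35 CPM in the control libraries (SD, n = 3 each). In GENCODE release 29, 78.5% of ILK's exon bases are shared with genes on the opposite strand, TAF10 among them. No integrin or laminin over 1 CPM shares so large a part: the highest is ITGB3 at 51.6%, and the next is ITGAE at 7.59%. Whether shared bases lowered any of these counts was not tested.

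The neighbouring members ITGA1 and ITGA2 moved in opposite directions, at -0.32 and 0.34, log2 fold changes that were called in edgeR and in each alternative run. The expressed genes within 2 Mb had median log2 fold changes of 0.28 around ITGA1 and 0.24 around ITGA2.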
